A study of Mus musculus with 26 samples.

Results

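Stable broad H3K4me3 domains were pairs of 1 peak in the Early-B list and 1 peak in the list of Ebf1-/- progenitors. Both peaks were at least 5000 bp long, and their overlap held at least 70% of the base pairs of each. There were 948 such pairs, drawn from 48054 Early-B peaks and 31414 progenitor peaks. They took up 41.0% of the 2312 Early-B peaks and 63.1% of the 1503 progenitor peaks that reached 5000 bp. The members were thus chosen by measured length and overlap, and both are given below as a description only. The genes of a domain were those with an end of their span within 1 kb of both peaks.

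H3K4me3, trimethylation of lysine 4 of histone H3, is laid down at gene start sites by COMPASS-type methyltransferases and is read by factors of transcription initiation. At most active genes it forms a short block over the CpG-rich start. At some genes it spreads over the start and well into the gene, and such broad domains are known in many tissues for marking genes of cell identity and genes transcribed at high and even rates. In lymphoid progenitors the mark precedes or goes along with the use of many lineage genes.

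The series used mouse progenitors that lack Ebf1, which encodes a factor that B cell specification requires, and asked how they take the B or T path. Early-B cells were Ebf1-/- progenitors given EBF1 through the retroviral vector MigR1-EBF1.ER, a fusion of EBF1 that 4-O-Hydroxy-tamoxifen switches on. They then spent 2 days on OP9 cells, a mouse stromal line, with the cytokines SCF, FLT3-L and IL-7 and the drug. The progenitors carried the same Ebf1-/- genotype without the added EBF1, and the sources used here do not give their culture. Both groups thus lack the endogenous gene's function, and EBF1 in Early-B cells comes from the vector. The labels list 26 samples in all, with 2 H3K4me3 immunoprecipitations and 2 input DNA samples in each of these groups. Early-T, small RNA and Ago2 samples were not analysed here.

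Each group had 1 peak list, so there was no spread between replicates to compare with and no test was made. The lists hold no read counts, and the depth behind a peak is unknown. Fold enrichment, pileup and p are the authors' own values for a peak and rank it within its list. They do not measure change between lists, although both are given side by side. In bulk chromatin, fewer cells that carry a mark and less of the mark per cell cannot be told apart.

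Peaks at marker genes were looked up as a check of the labels. All 6 B lineage markers had a peak at a gene end in Early-B cells, against 4 of 6 in progenitors, with Pax5 and Igll1 the genes that had none there. Of 3 stem cell markers, 1 had a peak in Early-B cells, against 3 in progenitors. These 3 do not stand for the wider stem and multipotent progenitor list, in which 15 of 20 genes had an end peak in both groups. Of 5 stromal markers, 5 had a peak in Early-B cells, from 590 to 3704 bp long, against 2 in progenitors, of 855 and 2094 bp. OP9 cells are stromal, and the part of their chromatin in the Early-B list was not tested. None of the 22 genes of the wider stromal list was touched by a stable broad domain, beside 4.86% of all coding genes. None of the 22 had a broad peak in progenitors, so the rule could choose none of them. Of these 22, 4 had a broad peak in Early-B cells, Prrx1 with 8769 bp, Pdgfra with 5898 bp, Fn1 with 5573 bp and Pparg with 5144 bp, against 1119 bp at Fn1 and no peak at the other 3 in progenitors.

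Sequences at 6 start sites inside stable domains show the range of base composition among the members. Ebf1 is shown as the factor that the progenitors lack, Ikzf1 and Il7r as lymphoid genes, and Hnrnpu as a splicing gene with a CpG-rich start. Each run holds the 250 bases before and 50 bases after a start site, from RefSeq on GRCm38.p6, the assembly of mm10, written 5′ to 3′ in the direction of the gene. Capitals mark every CpG.
Ebf1, first start, chr11:44617850-44618149, plus strand: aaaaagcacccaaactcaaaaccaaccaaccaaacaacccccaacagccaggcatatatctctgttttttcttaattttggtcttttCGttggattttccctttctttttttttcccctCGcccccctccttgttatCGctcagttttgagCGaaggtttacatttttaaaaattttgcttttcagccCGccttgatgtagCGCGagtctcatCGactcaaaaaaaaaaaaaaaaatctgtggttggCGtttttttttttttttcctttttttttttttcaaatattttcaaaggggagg
Ebf1, second start, chr11:44619978-44620277, plus strand: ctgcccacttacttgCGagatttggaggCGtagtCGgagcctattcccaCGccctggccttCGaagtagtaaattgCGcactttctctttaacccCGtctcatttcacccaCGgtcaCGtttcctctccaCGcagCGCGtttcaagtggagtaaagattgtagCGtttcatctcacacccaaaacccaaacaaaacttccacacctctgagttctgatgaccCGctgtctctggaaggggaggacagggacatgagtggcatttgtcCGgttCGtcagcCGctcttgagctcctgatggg
Ikzf1, first start, chr11:11685675-11685974, plus strand: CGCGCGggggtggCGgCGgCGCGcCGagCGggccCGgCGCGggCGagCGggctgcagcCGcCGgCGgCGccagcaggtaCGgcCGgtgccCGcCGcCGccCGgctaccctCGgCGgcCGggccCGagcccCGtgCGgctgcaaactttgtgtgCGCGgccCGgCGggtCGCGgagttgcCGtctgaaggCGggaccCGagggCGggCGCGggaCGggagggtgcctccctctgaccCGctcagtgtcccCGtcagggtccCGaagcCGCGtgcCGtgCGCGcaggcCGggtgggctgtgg
Ikzf1, second start, chr11:11689927-11690226, plus strand: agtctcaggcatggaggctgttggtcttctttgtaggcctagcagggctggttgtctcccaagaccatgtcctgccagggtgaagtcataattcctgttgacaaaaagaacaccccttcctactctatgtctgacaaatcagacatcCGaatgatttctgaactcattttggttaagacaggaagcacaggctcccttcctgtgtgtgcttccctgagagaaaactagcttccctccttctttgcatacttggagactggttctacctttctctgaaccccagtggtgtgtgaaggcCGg
Il7r, chr15:9529827-9530126, minus strand: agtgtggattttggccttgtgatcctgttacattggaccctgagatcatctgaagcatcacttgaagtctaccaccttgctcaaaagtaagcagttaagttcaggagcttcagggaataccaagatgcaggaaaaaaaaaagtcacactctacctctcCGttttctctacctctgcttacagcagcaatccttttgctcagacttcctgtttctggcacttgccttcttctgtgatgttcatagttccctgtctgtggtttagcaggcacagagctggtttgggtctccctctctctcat
Hnrnpu, chr1:178337766-178338065, minus strand: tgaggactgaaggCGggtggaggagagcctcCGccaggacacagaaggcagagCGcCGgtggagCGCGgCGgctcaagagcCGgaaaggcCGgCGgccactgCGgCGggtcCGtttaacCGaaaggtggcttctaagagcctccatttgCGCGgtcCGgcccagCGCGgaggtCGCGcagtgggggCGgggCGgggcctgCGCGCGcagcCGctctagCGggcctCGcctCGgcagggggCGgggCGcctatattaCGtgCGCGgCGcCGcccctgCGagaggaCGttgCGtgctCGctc
The CpG ratio, the number of CpG over that given by the C and G content, was 0.954 at the first and 0.819 at the second Ebf1 start. It was 1.06 at the first Ikzf1 start and at the Hnrnpu start. It was 0.111 at the second Ikzf1 start and 0.0647 at the Il7r start, which hold 2 and 1 CpG in their 300 bases. The first Ebf1 start holds 9 CpG at a GC content of 36.7%, and the second holds 17 at 53.0%. By contrast, the first Ikzf1 start holds 52 at 81.3% and the Hnrnpu start 41 at 72.7%. A high ratio at the first Ebf1 start thus goes with few CpG and a low GC content. Stable broad domains lay over CpG-rich and CpG-poor starts.

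Mature microRNAs from 5 loci inside stable domains are shown because the series is about microRNAs in this choice of lineage. They come from RefSeq on the same assembly, and capitals mark the seed, bases 2 to 8.
mmu-miR-17-5p: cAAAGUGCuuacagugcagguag
mmu-miR-20a-5p: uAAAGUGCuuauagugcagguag
mmu-miR-18a-5p: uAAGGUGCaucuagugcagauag
mmu-miR-19a-3p: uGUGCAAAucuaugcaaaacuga
mmu-miR-19b-3p: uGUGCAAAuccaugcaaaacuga
mmu-miR-92a-3p: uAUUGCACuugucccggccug
mmu-miR-15b-5p: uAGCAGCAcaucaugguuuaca
mmu-miR-16-5p: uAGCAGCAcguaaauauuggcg
mmu-miR-142a-3p: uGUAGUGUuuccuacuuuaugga
mmu-miR-191-5p: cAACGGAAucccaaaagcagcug
mmu-miR-196b-5p: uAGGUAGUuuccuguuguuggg
The seed AAAGUGC is shared by miR-17-5p and miR-20a-5p, GUGCAAA by miR-19a-3p and miR-19b-3p, and AGCAGCA by miR-15b-5p and miR-16-5p. The seed of miR-18a-5p, AAGGUGC, is a further one of the same cluster.

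Ebf1 itself lay under a stable broad domain. The Early-B peak covered chr11:44615552-44625444 (mm10) and the progenitor peak chr11:44616197-44626156. They were 9893 bp long in Early-B cells and 9960 bp in progenitors, with 92.9% of the longer one shared. Fold enrichment was 22.9 in Early-B cells and 24.3 in progenitors. Both peaks held both start sites shown above, of which the first is at the lower end of the gene's span, 44618100 to 45008096. Which bases the null allele lacks was not looked up, and the peaks say nothing of the genotype.

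Most stable domains were close in length between the groups, which the rule favours. The median length was 6495 bp in Early-B cells and 6363 bp in progenitors. The quartiles of length were 5707 and 7738 bp in Early-B cells and 5622 and 7672 bp in progenitors. The shared stretch held a median of 89.8% of the longer peak, with quartiles of 83.6% and 94.0%. The domains covered 6.73 Mb in Early-B cells and 6.66 Mb in progenitors, which is 8.08% of all base pairs in the Early-B list and 11.9% of those in the progenitor list.

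**Figure D1:**
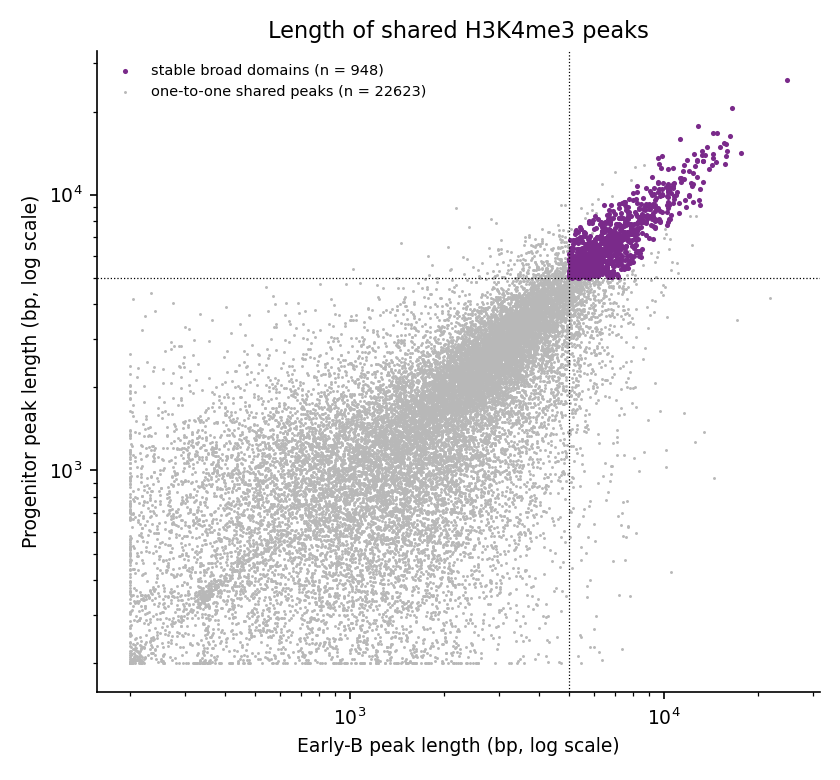
Length of the Early-B peak (horizontal) against that of the progenitor peak (vertical), both in bp on log scales, for the 948 stable broad domains (purple) and for 22623 pairs of peaks that each met exactly 1 peak of the other list (grey). Dotted lines mark the minimum of 5000 bp. The domains lie along the diagonal at the upper right, with the Hoxa domain at 24716 and 26068 bp at the far end.

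The Early-B peak was the longer one in 511 domains and the progenitor peak in 437, so that 53.9% were wider in Early-B cells. Over all 22623 one-to-one pairs of peaks the Early-B peak was the longer one in 62.9%. The ratio of Early-B to progenitor length had a median of 1.01 in the domains, against 1.11 over all one-to-one pairs. The Early-B peak was at least 1.2 times as long in 104 domains, or 10.97%, beside 41.8% of all one-to-one pairs. The progenitor peak was at least 1.2 times as long in 79 domains, or 8.33%, beside 20.9% of all one-to-one pairs. The rule bounds these ratios, so they say nothing further of the members.

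The overlap rule bounds how far apart the edges of a pair can lie. The lower-coordinate edge differed by a median of 366.5 bp and the upper one by 303.5 bp. In 384 domains (40.5%) both edges lay within 500 bp of each other, and in 121 domains within 200 bp. The Early-B peak lay wholly inside the progenitor peak in 175 domains, the progenitor peak inside the Early-B peak in 278, and the pair was shifted in 495. The pair with the largest shared part was at Kdm6b, which encodes a demethylase of H3K27, and the neighbouring dynein gene Dnah2, with 99.6% of 12643 bp in Early-B cells and 12663 bp in progenitors. It was followed by a V segment of the kappa light chain, Igkv14-111 (99.5%), the long noncoding RNA Chaserr (99.4%) and the cytokine receptor gene Il21r (99.4%).

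At the other end, Mex3c, which encodes an RNA-binding ubiquitin ligase, shared 70.1% of its longer peak, followed by Bcl11a (70.2%), Btg1 (70.2%), Cdc42 (70.2%) and the pair Klhl28 and Togaram1 (70.4%). Bcl11a, a transcription factor needed for lymphoid development, had 13072 bp in Early-B cells and 9172 bp in progenitors. Btg1, an antiproliferative gene, had 8479 bp in Early-B cells and 5953 bp in progenitors. Cdc42, a small GTPase, ran the other way with 5253 bp in Early-B cells and 7320 bp in progenitors. Just outside the 70% limit lay Slc44a2 (69.9%), Matr3 (69.6%) and Selplg (69.6%). Just inside the length limit were Sos1, Znrf2 and Rasa1, whose shorter peaks had 5001, 5003 and 5005 bp. Just outside it were Tsc22d4 with 4995 bp, Slirp and its neighbours with 4992 bp, and Stap2 with Mpnd at 4989 bp. Fold enrichment in these pairs was from 11.5 to 25.4 in Early-B cells and from 13.0 to 33.0 in progenitors, on both sides of the limits.

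The widest domain held start sites of Hoxa3, Hoxa7, Hoxa9 and Hoxa10 in the Hoxa cluster, homeobox genes of position and of blood progenitors, on chr6:52210379-52235094 in Early-B cells and chr6:52209423-52235490 in progenitors. It was 24716 bp long in Early-B cells, where it was the longest peak of the whole list, and 26068 bp in progenitors. Its fold enrichment was 7.45 in Early-B cells and 18.7 in progenitors, and its −log10 p was 37.8 in Early-B cells and 144 in progenitors. Mn1, a transcriptional coregulator known from leukaemia fusions, had 16547 bp and a fold of 6.10 in Early-B cells, against 20656 bp and 18.3 in progenitors. Ctr9, a subunit of the PAF1 elongation complex, had 14345 bp and a fold of 9.87 in Early-B cells, against 16698 bp and 23.1 in progenitors. At each of these 3 the Early-B peak lay wholly inside the progenitor peak.

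Other wide domains had folds closer to each other. Mef2d, a MADS-box transcription factor, had 15186 bp and a fold of 15.9 in Early-B cells, against 14842 bp and 15.6 in progenitors. Stk17b, a kinase gene of lymphocytes, had 15896 bp and 11.5 in Early-B cells, against 14366 bp and 11.4 in progenitors. Cdkn1b, which encodes the cell cycle inhibitor p27, had the widest Early-B peak after Hoxa among these 10, at 17649 bp, against 14173 bp in progenitors. The retinoic acid receptor gene Rara held a domain inside its span of 15762 bp in Early-B cells and 15275 bp in progenitors. The rest of the 10 were Igkv14-111, Tjp3 with Pip5k1c, and the stretch over Plekhg2, Zfp36 and Med29, between 14848 and 16316 bp in Early-B cells and between 15352 and 16787 bp in progenitors.

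**Figure D2:**
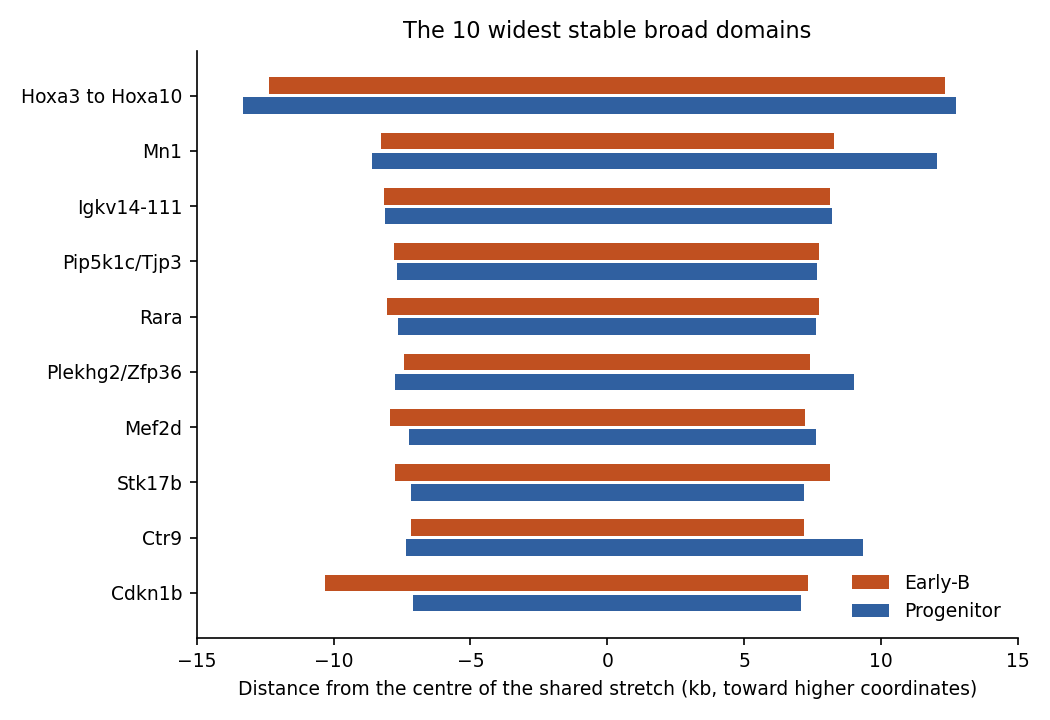
Early-B (orange, upper bar) and progenitor (blue, lower bar) peaks of the 10 widest stable domains, as distance in kb from the centre of the stretch they share. The edges nearly coincide at Igkv14-111, while the Early-B peak reaches farther on the left at Cdkn1b and the progenitor peak farther on the right at Mn1 and Ctr9.

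By the lower of the 2 −log10 p values, the strongest domain was at Irf2, an interferon regulatory factor, with 312 in Early-B cells and 313 in progenitors. Its peaks were 6626 bp in Early-B cells and 6269 bp in progenitors. The second lay over the J segments of the immunoglobulin heavy chain and Ighm, the mu constant region, with 308 in Early-B cells and 471 in progenitors. Prothymosin alpha, Ptma, had 376 in Early-B cells and 305 in progenitors, and its fold of 33.6 was the highest of any domain in the Early-B list. Slc1a5, a glutamine transporter, had 270 in Early-B cells and 364 in progenitors. The domain that held the start of Ttc9c and touched Hnrnpul2 had 265 in Early-B cells and 286 in progenitors.

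Over all 948 domains the median fold enrichment was 15.6 in Early-B cells, with quartiles of 11.6 and 18.9. In progenitors it was 18.7, with quartiles of 14.5 and 22.8. Early-B peaks of at least 5000 bp that were not members had a median of 10.1 (n = 1364), and such progenitor peaks had 15.3 (n = 555). Every length class under 3000 bp had a median below that of the domains in both lists. The classes from 3000 to under 5000 bp had medians below that of the domains in Early-B cells and above it in progenitors. The 3941 Early-B peaks from 3000 to under 4000 bp had 13.7 and the 2703 progenitor peaks of that length had 19.96. From 4000 to under 5000 bp the medians were 14.4 in Early-B cells and 19.1 in progenitors, and over all peaks of at least 5000 bp they were 12.6 in Early-B cells and 17.8 in progenitors. The longest class was thus not the one with the highest median fold in either list. Over the domains, fold had a Spearman correlation of 0.847 between the lists (n = 948), close to 0.837 over all one-to-one pairs (n = 22623). These points are regions of the same 2 lists, so the value is a description.

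**Figure D3:**
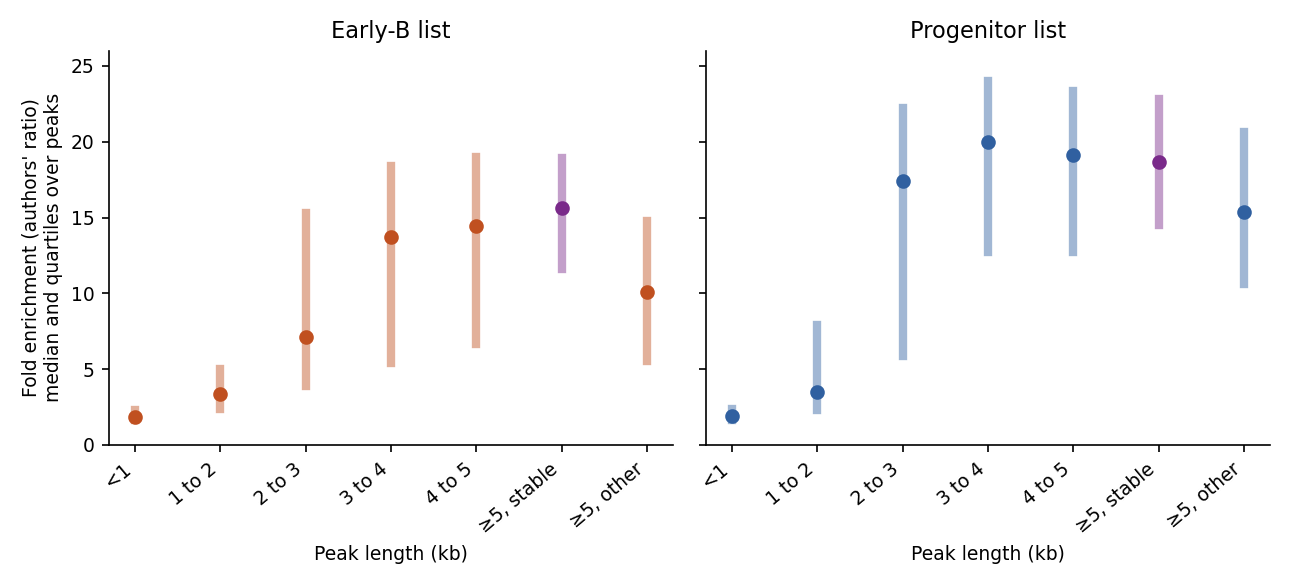
Median (points) and quartiles (bars) of the authors' fold enrichment by peak length in kb, in the Early-B list (left) and the progenitor list (right), with peaks of at least 5000 bp split into stable broad domains (purple) and the others to their right. Stable domains sit at medians of 15.6 in Early-B cells and 18.7 in progenitors, above the other broad peaks of their list at 10.1 and 15.3.

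The broad peaks that were not members differed in what they met in the other list. Of broad Early-B peaks, 725 met only shorter progenitor peaks of which the longest had 2500 bp or more, and 356 met only peaks under 2500 bp. A further 155 met a broad progenitor peak with too little overlap, and 128 met none. Of broad progenitor peaks, 370 met only Early-B peaks under 5000 bp of which the longest had 2500 bp or more, 38 met only peaks under 2500 bp, 145 met a broad one with too little overlap, and 2 met none. In the Early-B list, stable domains had a median fold of 15.6, against 6.10 in the peaks that met only short progenitor peaks. In the progenitor list the same medians were 18.7 in stable domains and 5.11 in the 38 peaks.

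Stable domains touched 1064 protein-coding genes, 4.86% of the 21883 in the gene table. They were 9.09% of the 11707 genes with a peak at a gene end in both lists. A coding gene was touched by 782 domains (82.5%), of which 539 touched 1, 206 touched 2, 29 touched 3, 6 touched 4 and 2 touched 5. The domains with the most genes lay over dense stretches. One touched Plcb3, Ppp1r14b, LOC114841036, Fkbp2 and Vegfb on chromosome 19, with 9410 bp in Early-B cells and 8048 bp in progenitors. Another held the replication-dependent histone genes H2ac8, H2bc8, H2bc7, H2ac7 and H3c4 on chromosome 13, with 7726 bp and a fold of 6.47 in Early-B cells, against 8551 bp and 15.9 in progenitors. The rest of the first 5 held Mrpl49, Fau, Znhit2 and Tm7sf2, then Nxf1, Tmem223, Tmem179b and Taf6l, then Wdr46, B3galt4, Rps18 and Vps52.

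Housekeeping genes were the list with the largest share of members touched, 10 of 15, beside 4.86% of all coding genes. Splicing genes had the larger share where an overlap of 90%, a length of 7500 bp, a fold of 10 or a start site within 1 kb was asked for. The gene lists here were chosen with earlier results of these lists known, so these shares describe the domains and are no test. The count of each list can be read beside 4.86% of all coding genes and beside 9.09% of those with a peak at a gene end in both lists. Of the 15 housekeeping genes 14 had such peaks, as did 20 of 20 splicing genes, so the second share is the closer one for these lists. Gapdh, the glycolytic enzyme, shared its domain with its neighbours Iffo1 and Ncapd2 and had 5731 bp and a fold of 21.6 in Early-B cells, against 5542 bp and 22.4 in progenitors. Tbp, the TATA-binding protein, had 5612 bp and 19.7 in Early-B cells, against 5193 bp and 23.9 in progenitors. Eef1a1, a translation elongation factor, had 6255 bp and 18.9 in Early-B cells, against 5518 bp and 22.8 in progenitors. B2m, the light chain of MHC class I, had 8524 bp and 17.4 in Early-B cells, against 6364 bp and 18.4 in progenitors. Actb, Eef2, Tubb5, Polr2a and Pgk1 had from 6642 to 9174 bp in Early-B cells and from 6003 to 10341 bp in progenitors.

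Genes of splicing factors and hnRNP proteins, which bind and process pre-mRNA, had 12 of 20 members under a stable domain. Hnrnpu, a nuclear matrix RNA-binding protein, had 7418 bp and a fold of 22.8 in Early-B cells, against 7166 bp and 29.2 in progenitors. Srsf1, an SR protein, had 5487 bp and 22.0 in Early-B cells, against 5770 bp and 24.8 in progenitors. Srsf2 had 7852 bp and 22.4 in Early-B cells, against 5973 bp and 29.5 in progenitors. Srsf3 had 8212 bp and 21.1 in Early-B cells, against 7513 bp and 27.1 in progenitors. Over the 20 genes the widest peak at a gene end had a median of 7610 bp in Early-B cells and 6057 bp in progenitors. Over all 11707 genes with a peak in both lists those medians were 3260 bp in Early-B cells and 2866 bp in progenitors.

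Other genes used in every cell type had smaller shares at this length. Cytosolic ribosomal proteins had 5 of 22 members touched (22.7%), with Rpl3, Rpl7, Rps2 and Rps18 among them, and a median widest peak of 4570 bp in Early-B cells and 4050 bp in progenitors. At a minimum length of 3000 bp, 20 of the 22 ribosomal genes and 17 of the 20 splicing genes were touched, so the order of these shares turned with the length asked for. Rpl7 had 6514 bp in Early-B cells and 6288 bp in progenitors. Respiratory chain and mitochondrial genes had 1 of 22 touched (4.55%), close to the 4.86% of all coding genes. That member was Atp5b, the beta subunit of ATP synthase, whose start site lay outside the shared stretch, and the domain also touched the chromatin gene Baz2a. Cox5a of the same list had no peak near an end of its span and was not counted, although a start site of Cox5a lay in a stable domain. That domain reached 4406 bp downstream of the Cox5a start in Early-B cells and 5251 bp in progenitors. MicroRNA machinery had 1 of 15, the decay helicase gene Ddx6, with 8231 bp in Early-B cells and 10737 bp in progenitors.

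**Figure D4:**
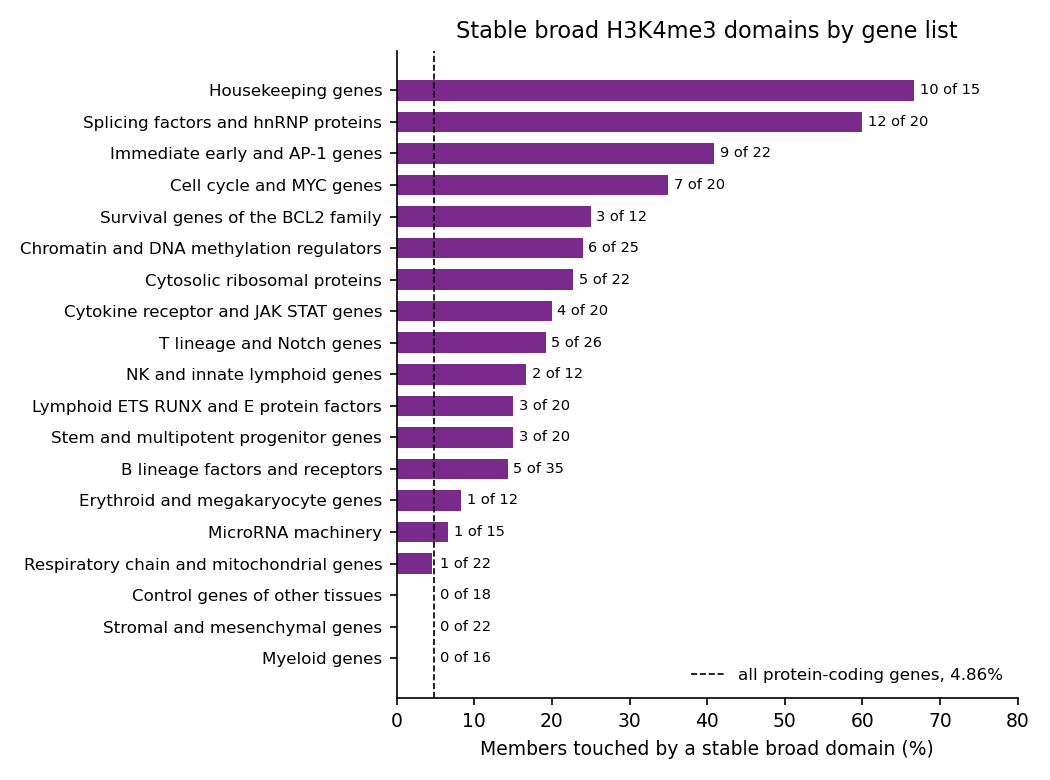
Share of each gene list, in %, with an end within 1 kb of a stable broad domain, with the number touched of the number matched beside each bar. The dashed line is the share of all protein-coding genes, 4.86%. Housekeeping genes (10 of 15) and splicing genes (12 of 20) have the longest bars, and myeloid, stromal and other-tissue lists have 0. No stromal or other-tissue gene of the lists had a broad end peak in progenitors, so the rule could choose none of them.

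B lineage factors and receptors had 5 of 35 members under a stable domain (14.3%), beside 4.86% of all coding genes and 9.09% of those with a peak in both lists. Besides Ebf1 they were Ikzf1, Ptprc, Syk and Btk. Ikzf1, the Ikaros factor of all lymphoid cells, had 12797 bp and a fold of 16.7 in Early-B cells, against 13273 bp and 23.7 in progenitors, and its domain held both start sites shown above. Ptprc, which encodes the leukocyte phosphatase CD45, had 5034 bp and 16.6 in Early-B cells, against 5523 bp and 17.5 in progenitors. Syk, a kinase of the B cell receptor pathway, had a pair of domains with a start site in each, one of 5687 bp in Early-B cells and 5508 bp in progenitors, and one of 5589 bp in Early-B cells and 5775 bp in progenitors. Btk, a Tec family kinase, had 8026 bp and 10.5 in Early-B cells, against 7477 bp and 10.7 in progenitors.

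For the same list, 24 genes had a broad peak at an end in Early-B cells and 7 in progenitors. Of these, 6 had an Early-B peak of at least 5000 bp that met only progenitor peaks under 2500 bp. Pax5, the commitment factor of the B lineage, had a widest end peak of 16264 bp in Early-B cells and none in progenitors. Cd79b, a signalling chain of the B cell receptor, had 12576 bp in Early-B cells and 1266 bp in progenitors. Cd79a, the other chain, had 12338 bp in Early-B cells and 6589 bp in progenitors, and was not a member. Stable domains thus took 5 of the 24 genes of the list that were broad in Early-B cells.

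Cytokine receptor and JAK-STAT genes had 4 of 20 members touched. Il7r, the receptor chain for IL-7, lay on chr15:9525374-9531039 in Early-B cells and chr15:9525182-9530481 in progenitors, 5666 bp and 5300 bp long, with a fold of 12.9 in Early-B cells and 15.2 in progenitors. Socs2 and Socs1, feedback inhibitors of cytokine signalling, had 11612 bp and 8792 bp in Early-B cells, against 11443 bp and 7884 bp in progenitors. Pim1, a kinase gene induced by STAT factors, had 15665 bp in Early-B cells and 12869 bp in progenitors.

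Cell cycle and MYC genes had 7 of 20 members touched, beside 4.86% of all coding genes. Cdk6, the G1 kinase, had 6269 bp and a fold of 29.1 in Early-B cells, against 7850 bp and 31.1 in progenitors. Myc had 8141 bp and 27.1 in Early-B cells, against 6984 bp and 31.4 in progenitors. Mycn, its paralog, had 7612 bp and 23.0 in Early-B cells, against 9024 bp and 37.4 in progenitors, the highest fold of any domain in the progenitor list. Trp53, which shares its start region with Wrap53, had 5722 bp and 23.6 in Early-B cells, against 6101 bp and 29.5 in progenitors. Ccnd2, Cdkn1a and Cdkn1b were the others. Of the BCL2 family, 3 of 12 were touched. Mcl1, an inhibitor of apoptosis, had 6315 bp and 21.0 in Early-B cells, against 5744 bp and 22.7 in progenitors, and the pro-apoptotic genes Bbc3 and Bax were the other two, the start site of Bax lying outside the shared stretch.

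Immediate early and AP-1 genes, which respond fast to signals, had 9 of 22 members touched. Ier2 had 7962 bp and a fold of 24.8 in Early-B cells, against 7223 bp and 29.9 in progenitors. Klf6, a zinc finger factor, had 5777 bp and 21.1 in Early-B cells, against 5018 bp and 18.9 in progenitors. Dusp2, a phosphatase of MAP kinases, had 6058 bp and 16.8 in Early-B cells, against 6438 bp and 19.8 in progenitors. Klf13 had 7723 bp and 16.1 in Early-B cells, against 6932 bp and 23.0 in progenitors. Fos, Fosl2, Jund, Klf2 and Btg1 were the others, with lengths from 5099 to 9681 bp in Early-B cells and from 5713 to 8151 bp in progenitors.

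Chromatin and DNA methylation regulators had 6 of 25 members touched, beside 4.86% of all coding genes. Chd4, the remodeller of the NuRD complex, had 5783 bp and a fold of 23.7 in Early-B cells, against 5394 bp and 32.9 in progenitors. Arid1a, a subunit of the BAF complex, had 10719 bp and 23.5 in Early-B cells, against 10780 bp and 30.4 in progenitors. Kmt2d, itself a methyltransferase of H3K4, had 6329 bp and 22.4 in Early-B cells, against 6179 bp and 27.4 in progenitors. Ezh2, the methyltransferase of Polycomb, had 7162 bp and 18.2 in Early-B cells, against 6285 bp and 21.8 in progenitors. Smarca4 and Kdm6b were the others.

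Lymphoid ETS, RUNX and E protein factors had 3 of 20 members touched, Foxp1, Runx1 and Id2, beside 4.86% of all coding genes. Of these 20, 10 had a broad peak at an end in Early-B cells and 5 in progenitors. Elf1 of this list was not counted as touched, with widest end peaks of 4822 bp in Early-B cells and 5483 bp in progenitors. A start site of Elf1 nevertheless lay in a stable domain, which reached 9050 bp downstream of it in Early-B cells and 9664 bp in progenitors. NK and innate lymphoid genes had 2 of 12 touched, Id2 and Nfil3. Foxp1, a forkhead factor of early B cells, had start sites in 3 domains along its span. They were 8574, 7065 and 6203 bp long in Early-B cells, against 9717, 7831 and 5605 bp in progenitors. Runx1, needed for blood stem cells, had start sites in 2 domains, of 6632 and 5412 bp in Early-B cells and 6795 and 6919 bp in progenitors. Gse1 and Syk were the other genes with start sites in 2 domains. Id2, an inhibitor of E proteins, had 8762 bp and a fold of 10.5 in Early-B cells, against 8801 bp and 18.1 in progenitors. Nfil3, a factor of innate lymphoid cells, had 6684 bp and 7.36 in Early-B cells, against 8485 bp and 16.6 in progenitors.

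The list drawn up for T lineage and Notch genes had 5 of 26 members touched, or 19.2%, beside 4.86% of all coding genes. They were Bcl11a, Runx1, Tox, Hes1 and Cd28. Bcl11a, named above as a factor needed for lymphoid development, was placed in this list. Runx1 is also counted among the lymphoid ETS, RUNX and E protein factors. The share is thus not one of T lineage genes alone. Only 2 of the 26 were touched when a fold of at least 10, a −log10 p of at least 50, an overlap of 80% or a start site within 1 kb was asked for. Tox, an HMG-box factor of T cell development, had 5278 bp and a fold of 8.07 in Early-B cells, against 7470 bp and 21.5 in progenitors. Hes1, a target of Notch, had 10372 bp and 6.10 in Early-B cells, against 7966 bp and 6.65 in progenitors. Stem and multipotent progenitor genes had 3 of 20, Mycn, Lyl1 and Hoxa9. Lyl1, a bHLH factor, had 10439 bp and 15.8 in Early-B cells, against 9151 bp and 20.9 in progenitors. Erythroid genes had 1 of 12, the transferrin receptor gene Tfrc, which all dividing cells use, with 9314 bp in Early-B cells and 9157 bp in progenitors. None of 16 myeloid genes and none of 18 control genes of other tissues was touched, beside 4.86% of all coding genes. Of the myeloid genes, 4 had a broad peak at an end in Early-B cells and 2 in progenitors. No control gene had a broad end peak in progenitors, so the rule could choose none of them. In all, 74 of 365 genes over the 19 lists were touched.

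A coding start site of the RefSeq table lay inside both peaks in 722 domains (76.2%), and 883 genes had a start there, 5.05% of the 17491 genes in the table. Of 5154 shared peak pairs from 1000 to under 3000 bp with the same overlap, 49.0% held a coding start. Stable domains held 2 or more coding starts in 28.6%, against 7.88% of those short pairs, and starts on both strands in 13.2%, against 2.50%. No comparison was made at equal length, and a longer stretch can hold more starts.

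In 451 domains with a single coding start, the direction of the gene could be read. The mark reached a median of 4406 bp downstream of the start in Early-B cells and 4497 bp in progenitors. Upstream it reached 1895 bp in Early-B cells and 1672 bp in progenitors. The downstream side was the longer one in 376 domains (83.4%) in Early-B cells and in 390 (86.5%) in progenitors. In short pairs with a single start the downstream side was the longer one in 88.4% of 2119, with a median of 1433 bp downstream and 757 bp upstream in Early-B cells. The Early-B peak reached farther upstream in 318 of the 451 domains and farther downstream in 193. The differences were small beside the domains' length, with a median of 276 bp upstream and 440 bp downstream.

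**Figure D5:**
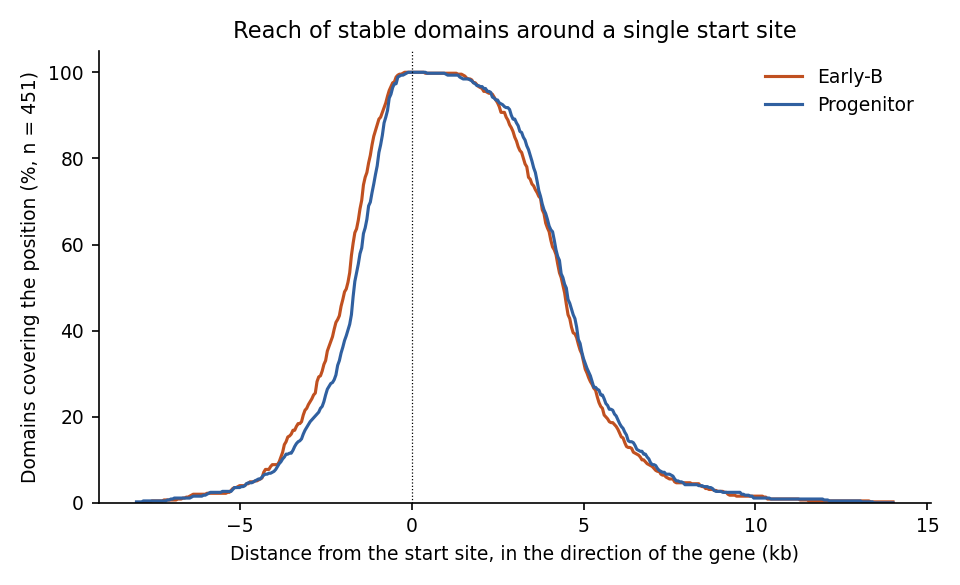
Share of 451 stable domains with a single coding start site, in %, that cover each distance from that start in kb, with the gene running to the right, for Early-B (orange) and progenitor (blue) peaks. Both curves fall more slowly downstream than upstream, and the Early-B curve lies farther out upstream, with medians of 1895 bp in Early-B cells and 1672 bp in progenitors.

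Promoter sequence was not used to choose the domains. The 1140 coding starts inside them had a median GC content of 64.3% and a median CpG ratio of 0.833 in the 300 bases of the table. Over all 21262 coding starts the medians were 56.3% and 0.567. Starts in short shared pairs were in between, with 60.7% and 0.768 (n = 3033). Starts in broad Early-B peaks that met only progenitor peaks under 2500 bp had 59.7% and 0.617 (n = 155). Here and for the motifs below, starts of this set were taken over the whole Early-B peak. Those of stable domains and short pairs were taken only in the stretch that both peaks cover, so the sets are not fully alike. A GC content of at least 55% with a CpG ratio of at least 0.65 was found for 68.2% of starts in stable domains, 38.7% of those in Early-B-broad peaks, 59.5% in short pairs and 38.0% overall. The stable domains still held 93 starts (8.16%) with a CpG ratio below 0.3, against 32.0% of all starts. Il7r and the second start of Ikzf1, printed above, are among them. These shares are over start sites, of which some belong to the same gene, and no test was made.

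Motifs were searched as exact letters on both strands, and a match is a description of the letters only. The SP1 motif GGGGCGGGG was found in 25.5% of starts in stable domains, against 15.4% of all starts, and in 22.2% of short pairs and 25.8% of Early-B-broad peaks. The NFY motif CCAATCA was found in 12.8%, against 9.11% of all. The TATA box, TATAAA, was found in 6.75%, against 12.6% of all. The ETS motif CCGGAAGT was found in 6.75%, against 5.15% of all and 10.8% of starts in short pairs. The PU.1 motif GAGGAAGT was found in 2.63%, against 3.13% of all, the E-box CAGGTG in 14.2%, against 19.7% of all, and the CRE motif TGACGTCA in 2.54%, against 2.23% of all. The EBF1 motif, TCCC and GGGA with 2 bases of any kind between them, was found in 11 of 1140 starts (0.965%), against 0.959% of all. Neither Ebf1 start holds these EBF1 letters, while the first Ebf1 start and the Il7r start hold the RUNX motif TGTGGTT, found in 2.89% of starts in stable domains and 4.71% of all.

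MicroRNA precursors lay inside 26 of the domains. They were 36 of 1228 precursors in the gene table (2.93%). Of 53 microRNAs known from lymphoid development, 12 were among them. The domain of the miR-17 to miR-92 cluster lay over its host Mir17hg on chr14:115038740-115046018 in Early-B cells and chr14:115039514-115046602 in progenitors. It was 7279 bp long with a fold of 12.1 in Early-B cells, against 7089 bp and 16.9 in progenitors, and it held Mir17, Mir18, Mir19a, Mir20a, Mir19b-1 and Mir92-1. These microRNAs are known to promote survival of early B cells, with pro-apoptotic BCL2 genes among their targets. Mir142, expressed throughout blood, lay in a domain of 13984 bp in Early-B cells and 12378 bp in progenitors. Mir15b and Mir16-2, which target cell cycle genes, lay in the domain of Smc4 and Ift80, of 10755 bp in Early-B cells and 9320 bp in progenitors.

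Mir191 and Mir196b lay in domains shared with coding genes. Mir191 was in that of Impdh2, Ndufaf3 and Dalrd3, with 6052 bp in Early-B cells and 6171 bp in progenitors. Mir196b was in the Hoxa domain. A domain over a precursor does not show that the microRNA is made from it.

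Antigen receptor segments lay under 6 stable domains. That of the heavy chain J segments and Ighm, on chr12:113419974-113432343 in Early-B cells and chr12:113422365-113431788 in progenitors, had a fold of 28.6 in Early-B cells and 35.3 in progenitors. Several lay at the J and C segments of the T cell receptor gamma chain on chromosome 13. Trgj2 with Trgc2 had 9608 bp and a fold of 10.1 in Early-B cells, against 8971 bp and 17.1 in progenitors. Trgj1 with Trgc1 had 6729 bp and 5.76 in Early-B cells, against 8803 bp and 9.55 in progenitors, and Trgj4 with Trgc4 had 13562 bp and 3.83 in Early-B cells, against 13903 bp and 6.61 in progenitors. Segments Trdd2 and Trdj1 of the delta chain had 7918 bp and 4.95 in Early-B cells, against 7531 bp and 10.3 in progenitors. Igkv14-111 of the kappa chain had 16316 bp and 5.90 in Early-B cells, against 16351 bp and 9.29 in progenitors. Receptor segments that are cut and joined in these cells can lose or move the sequence under a peak, and rearrangement was not measured here.

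No coding gene end lay within 1 kb of 166 domains. Of these, 110 lay inside the span of a coding gene, 69 held a coding start site, 49 touched a long noncoding RNA and 6 touched receptor segments, with overlaps among these counts. The strongest after the heavy chain locus were at internal starts or inside the spans of Ywhaz, a 14-3-3 protein of the housekeeping list, Midn, the Hedgehog receptor gene Ptch1 and the nucleolar factor gene Ubtf. Ywhaz had 6966 bp and a fold of 24.4 in Early-B cells, against 6550 bp and 29.3 in progenitors. The 166 domains had a median fold of 11.1 in Early-B cells and 14.9 in progenitors, against 16.3 in Early-B cells and 19.1 in progenitors for the 539 that touched 1 gene. In 22 domains none of these features was found.

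Fold enrichment was under 5 in both lists in 18 domains, of which 2 touched a coding gene, Dnajb12 and the chemokine receptor gene Ccr2. Their shared part had a median of 82.7% of the longer peak. The lowest was at AY036118 on chromosome 17, with a fold of 1.19 in Early-B cells and 1.18 in progenitors. Its pileup, the authors' read coverage, was 327 in Early-B cells and 382 in progenitors, while the other 17 had pileups of 36.5 or less in both lists. At the domain inside Inpp5d, a lipid phosphatase gene, the fold was 2.57 in Early-B cells and 2.82 in progenitors. Both peaks had a −log10 p of at least 50 in 819 domains and a fold of at least 10 in 765.

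Domains were spread over the autosomes and X. Chromosome 19 had the largest share of coding genes touched, 9.65%, with 47 domains, and chromosome 11 had the most domains, 94. On X there were 15, and 1.55% of its coding genes were touched. In all, 234 domains (24.7%) lay within 100 kb of another.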

How the data were processed

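H3K4me3 was measured by ChIP-seq in Early-B cells and Ebf1-/- progenitors, with 1 deposited peak list per group. The 2 labelled replicates per group have no list of their own, and the sources used here do not say whether they were pooled. The aligner Bowtie 1.1.2, the peak caller MACS 1.4.3 and both mm10 and GRCh38 appear per the submitters' processing notes, with no role stated. The deposited columns are of a kind that later MACS versions write, and the use of input reads in the fold is not stated. Per the file headers, a peak has a length, a pileup (a signal of read coverage) and a fold enrichment (a ratio) as given by the authors. Another pair of deposited columns has damaged names and was read from values and order as −log10 p and −log10 q. These values describe peaks within a list. No read counts are held, so depth is unknown, and no interval for counting error could be given.

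Pairs, lengths and overlaps were computed in pandas 2.3.3 and numpy 2.4.6 under Python 3.11.15, intervals in scipy 1.17.1 and plots in matplotlib 3.10.9. Genes came from RefSeq on GRCm38.p6 (mm10), with 21883 coding genes on the chromosomes used. A gene was touched when both peaks came within 1 kb of an end of its span. Start sites and promoters came from a RefSeq table of 17491 coding genes, with no rows for 1 chromosome that holds 20 domains. Of 374 list entries, all were matched by symbol or synonym. Pairing and gene windows were tested on simulated data with known answers. No test between groups was made, since each group is 1 list.

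The members and gene lists were chosen with earlier results of these data known. Named were Ebf1, the 10 widest and 5 strongest domains by the lower −log10 p, up to 4 members per gene list, the 5 highest and 5 lowest overlaps, the 3 pairs on each side of each limit, the 5 strongest without a coding gene end, the 5 with most genes, and lymphoid microRNAs in a domain. Some items that these rules name are not reported here. Receptor segments, weak domains, genes with several domains and remaining list members were named after their values were seen. Alternatives varied the length, the overlap, the peak threshold, the list length, joined peaks and the gene window.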

Additional observations from a re-analysis of the deposited data

How the results depend on the processing

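The number of stable domains follows the length rule. Minimum lengths of 3000, 4000 and 7500 bp gave 3888, 1855 and 205 domains, 4202, 2089 and 243 coding genes, and 159, 108 and 30 of the list genes, in place of 948, 1064 and 74. An overlap of at least 90% gave 463 domains, 545 genes and 37 list genes. With overlaps of 50% or 80%, stricter p, q or fold, lists of equal length and peaks joined across 1 kb, the domains numbered 765 to 1050. The share wider in Early-B cells was 58.6% at 3000 bp and from 53.3% to 55.9% elsewhere. The median fold was 17.0 in Early-B cells and 20.5 in progenitors at 3000 bp, 16.4 and 19.7 at 4000 bp, 13.8 and 17.4 at 7500 bp, and 16.4 and 19.5 for domains with a coding gene end. The gene windows gave 892 to 1171 genes. Of 285 counts per gene list, 59 moved by over 1.5 times. Housekeeping genes led the lists except where the start site, a fold of at least 10, a length of 7500 bp or an overlap of 90% was asked for, when splicing genes led. A further pair of comparisons was repeated after the data were seen. At 3000, 4000 and 7500 bp, 1849, 762 and 68 Early-B peaks met only progenitor peaks under 2500 bp, in place of 356, and the median CpG ratio was 0.801 at 7500 bp.

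No paired analysis was possible because each group has 1 peak list, and no replicate was left out for the same reason. Depth and counting error are unknown.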
